A study of Mus musculus with 20 samples.

Results

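The heat shock chaperone genes described here are 10 mouse genes: Hspa8, Hspa5, Hspa9, Hspa4 and Hsph1 of the Hsp70 and Hsp110 families, Hsp90aa1, Hsp90ab1 and Hsp90b1 of the Hsp90 family, and Hspd1 and Hspe1, the mitochondrial chaperonin and its lid. Their introns were found by matching the transcript listed for each intron to its gene symbol in the GENCODE mouse release 21 annotation. This gave 87 of the 68794 introns for which spliced and unspliced reads were tabulated, and 48 of the 6537 introns for which splicing intermediates were tabulated as well. The RNA came from MEL (murine erythroleukemia) cells, a line of mouse erythroid precursors labelled as wild type, either uninduced or kept in 2% DMSO for 5 days, which starts red cell maturation. For each condition 4 long-read samples are labelled, from 2 biological replicates on 2 PacBio instruments, and their RNA was taken from chromatin and depleted of polyadenylated and ribosomal RNA, which enriches transcripts still attached to the polymerase. The tables hold 1 pool per condition, so replicate error could not be computed for any value, and each test compares 2 pools of libraries and not 2 conditions. MEL cells are 1 leukemia line, and whether the replicates were separate cultures is not stated beyond the word biological.

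Heat shock proteins of these families are made at all times as well as under stress. Hsp70 proteins bind stretches of unfolded protein and release them on ATP exchange, Hsp90 proteins finish the folding of kinases and receptors, and the chaperonin encloses a whole protein in a chamber. Each compartment has its own set: Hspa8 and Hsp90ab1 are the constant forms of the cytosol, Hspa5 (BiP) and Hsp90b1 (Grp94) those of the endoplasmic reticulum, and Hspa9, Hspd1 and Hspe1 those of the mitochondrion. In red cell precursors chaperones are known for holding newly made globin and for guarding the transcription factor Gata1.

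Depth was low. The uninduced pool held 416379 and the induced pool 279371 intron observations (reads summed over introns, so a long molecule adds to several introns), and the chaperone introns took 1605 and 1044 of them. At least 10 reads were present for 57 chaperone introns of 7 genes in the uninduced pool, for 36 introns of 5 genes after induction and for 34 introns of 4 genes (Hspa8, Hspa5, Hsp90ab1 and Hsp90b1) in both. All 10 erythroid marker genes had reads in the induced and 9 in the uninduced pool (Slc4a1 had 0), with a sum of 290 uninduced and 3310 induced reads over each gene's most covered intron; of 8 markers of lymphoid, myeloid and fibroblast cells, Cd68 had 1 uninduced read and the other 7 have no line in the table, so their reads are not measured here. Of the 87 chaperone introns 83 lay between coding exons and 4 in the 5' UTR. For Hsp90aa1, Hspd1 and Hsph1 the tabulated transcript is a short one with 3, 4 and 3 introns, where other annotated transcripts have up to 10, 11 and 18, so most introns of these 3 genes are not covered by the values below. The genome also carries intronless retrocopies of several of these genes, and how reads matching more than 1 place were assigned is not stated.

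The splice sites of the introns on which the results turn are printed here because each intron is known by them. Each 5' splice site has 3 exon and 6 intron bases and each 3' splice site 20 intron and 3 exon bases, as deposited, written 5' to 3' on the strand of the gene, with the intron's first and last 2 bases in capitals. Positions are those of the intron on GRCm38. The introns are Hspa5 intron 1 (chr2:34772147-34772228, plus strand), Hspa5 intron 3 (chr2:34772791-34773169, plus), Hspa8 intron 1 (chr9:40801349-40801917, plus), Hspa8 intron 6 (chr9:40803943-40804164, plus), Hspa8 intron 7 (chr9:40804364-40804462, plus), Hsp90ab1 intron 5 (chr17:45570567-45570665, minus) and Hsp90b1 intron 1 (chr10:86704397-86705306, minus).
Hspa5 intron 1, 5' site: gagGTaagc
Hspa5 intron 1, 3' site: gaggcccctgtcgccctcAGacc
Hspa5 intron 3, 5' site: aagGTcgga
Hspa5 intron 3, 3' site: taaattactttatgccatAGgtg
Hspa8 intron 1, 5' site: aagGTgagg
Hspa8 intron 1, 3' site: ctcctttttttttctaatAGcaa
Hspa8 intron 6, 5' site: cagGTatgt
Hspa8 intron 6, 3' site: atttttattgtctcttctAGgtg
Hspa8 intron 7, 5' site: aggGTaagt
Hspa8 intron 7, 3' site: tttgtaactttcatcatcAGgcc
Hsp90ab1 intron 5, 5' site: tatGTgagt
Hsp90ab1 intron 5, 3' site: atgtgtcattggtgatttAGttg
Hsp90b1 intron 1, 5' site: tcgGTgagt
Hsp90b1 intron 1, 3' site: gttgtaacctttctccccAGggt

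All 48 chaperone introns in the second table start with GT and end with AG, as do 98.0% of the 6537 introns there. The deposited splice site scores, in which a higher value is understood as closer to the consensus (the scoring program is not stated), had a median of 9.00 at the 5' and 8.14 at the 3' site, beside 8.78 and 8.70 over all introns of that table. The lowest 5' score among the chaperone introns was 4.85 at Hspa5 intron 3 and the highest 11.11 at Hsp90b1 intron 1; the lowest 3' score was 2.51 at Hspa9 intron 14 and the highest 12.99 at Hspa8 intron 6. These 48 chaperone introns were short, with a median of 292 nt against 951 nt over all introns of the table. None of them is of Hsp90aa1, Hspa4 or Hsph1, and introns of Hspa4 reached 7745 nt.

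Splicing was read out as coSE, the spliced reads over spliced plus unspliced reads of an intron, with 95% Wilson intervals that cover counting error only. None of the 34 chaperone introns with at least 10 reads in both pools passed an adjusted p of 0.05 (two-sided Fisher's exact test, Benjamini-Hochberg adjustment over all 4403 introns tested), where 1.61% of all introns passed, 0.363% higher and 1.25% lower in the induced pool. By the chi-square test the chaperone count was also 0. An unadjusted p under 0.05 was found for 7 of the 34 introns (20.6%), beside 7.97% of all introns: 5 in Hspa5, all higher in the induced pool (3.59% of all introns were so), and 2 in Hsp90ab1, both lower (4.38%). These 7 introns lie in 2 genes and share molecules within each, so they are not 7 separate measurements. The sign of the difference was higher in the induced pool at 19 and lower at 15 of the 34 introns, beside 42.7% and 34.8% of all introns, where ties were common. The median difference was 0.0216, against 0 over all introns tested. It was 0 over the 82 chaperone introns with a read in both pools, 0.160 over the 14 with 20 reads and 0.105 over the 18 present in all spanning transcripts, so its size depended on the introns taken. The 14 introns are of Hspa8 and Hspa5 only, and the 18 hold none of Hspa8; the median of the 4 gene means was 0.0276.

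**Figure D1:**
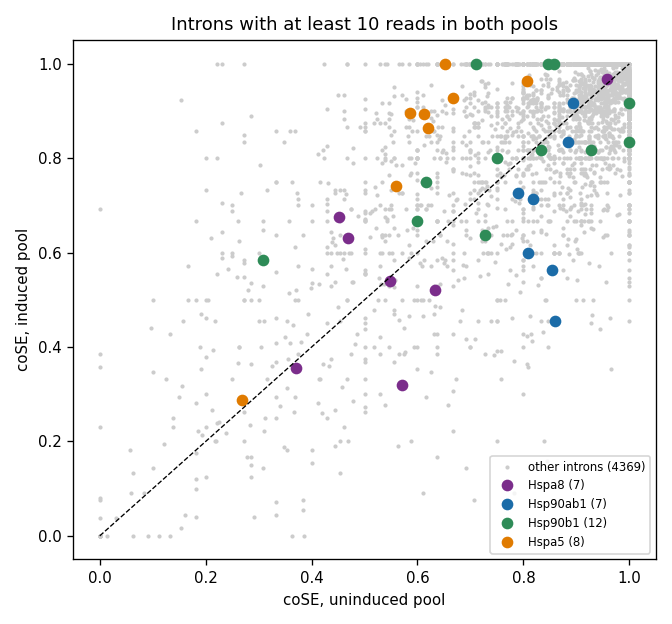
Each point is 1 intron with at least 10 reads in both pools, with its coSE in the uninduced pool on the horizontal and in the induced pool on the vertical axis; chaperone introns are coloured by gene, the others grey, and the dashed line marks equal values. All 8 introns of Hspa5 lie above the line, 6 of the 7 of Hsp90ab1 below it, and those of Hspa8 and Hsp90b1 on both sides.

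Hspa5 encodes BiP, the Hsp70 protein of the endoplasmic reticulum. Its 8 introns split into intron 1, in the 5' UTR, and the 7 introns between coding exons. Intron 1 was spliced in 11 of 41 uninduced reads, giving a coSE of 0.268 (0.157 to 0.419). In the induced pool 30 of 104 reads were spliced, giving 0.288 (0.210 to 0.382). Both pools thus gave a low value, and the difference of 0.0202 had a 95% interval from -0.150 to 0.165. This intron has 82 nt, a deposited GC content of 69.5%, the highest of the chaperone introns, and belongs to 2 of the 3 transcripts annotated across it. A coSE as low or lower was found at 3.16% of all uninduced and 2.89% of all induced introns with 10 reads, and at 6% and 8.07% of those of up to 100 nt.

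At the next intron of Hspa5 most reads were spliced. Intron 2 (chr2:34772447-34772558) was spliced in 21 of 26 uninduced and 54 of 56 induced reads, with coSE values of 0.808 (0.621 to 0.915) and 0.964 (0.879 to 0.990). Introns 3 to 8 had a coSE of 0.559 to 0.667 in the uninduced and of 0.742 to 1 in the induced pool. With intron 2 included the ranges overlapped, since its uninduced 0.808 lay above the induced 0.742 of intron 6. The Wilson intervals of the 2 pools overlapped at introns 2, 6, 7 and 8 and not at introns 3, 4 and 5. These introns share molecules, so they are not separate measurements. At intron 3, 19 of 31 uninduced reads and 42 of 47 induced reads were spliced, a difference of 0.281 (0.0891 to 0.465; unadjusted p 0.00490, adjusted p 0.174). Intron 5 (chr2:34773934-34774027) was spliced in 17 of 29 and in 34 of 38 reads, a difference of 0.309 (0.0995 to 0.498; unadjusted p 0.00439, adjusted p 0.168 by Fisher's exact test). Intron 8 (chr2:34775234-34775550) was spliced in 15 of 23 and in 16 of 16 reads; a count of 0 unspliced reads allows a share of up to 18.8%, and its difference of 0.348 (0.0968 to 0.551) had an adjusted p of 0.317. Introns 2 and 4 had unadjusted p of 0.0302 and 0.0106, and introns 6 and 7 of 0.194 and 0.0658. With the reads of introns 2 to 8 added together, 63.9% of 202 uninduced and 90.1% of 252 induced observations were spliced, a sum in which a molecule counts at each intron it covers, so no interval is given.

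Hspa8 encodes Hsc70, the constant Hsp70 protein of the cytosol. Its 5' UTR intron was nearly always spliced: intron 1 had 23 of 24 uninduced and 30 of 31 induced reads spliced, a coSE of 0.958 (0.798 to 0.993) and 0.968 (0.838 to 0.994). This is the opposite order to Hspa5, where the 5' UTR intron had the lowest value of the gene. The 7 introns between coding exons had a coSE of 0.364 to 0.633 in the uninduced pool. In the induced pool the 6 of them with 10 reads ranged from 0.319 to 0.676. Added together, 48.8% of 209 uninduced and 49.8% of 241 induced observations at introns 2 to 8 were spliced, nearly the same share. Intron 7, of 99 nt, was spliced in 13 of 35 and 11 of 31 reads (0.371 and 0.355), a level reached or undercut by 4.84% and 3.65% of all introns of each pool and by 10.4% and 10.5% of those of up to 100 nt. Intron 8 (chr9:40804696-40804931) had the lowest uninduced value, 8 of 22 reads or 0.364 (0.197 to 0.570), and 3 of 8 induced reads, under the minimum.

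Within Hspa8 the largest differences between the pools were at intron 4 (chr9:40802892-40802973), spliced in 16 of 28 and 15 of 47 reads, and at intron 6, spliced in 14 of 31 and 23 of 34 reads. The coSE was thus 0.571 and 0.319 at intron 4, a difference of -0.252 (-0.452 to -0.0221; Fisher's exact test, unadjusted p 0.0516, adjusted p 0.635). At intron 6 it was 0.452 and 0.676, a difference of 0.225 (-0.0147 to 0.432; adjusted p 0.790). The signs are opposite, and neither difference passed the threshold. Introns 5, 6 and 8 of this gene each hold an annotated small nucleolar RNA (Snord14c, Snord14d and Snord14e), RNAs that guide rRNA modification and are cut out of introns. Intron 5 (chr9:40803530-40803739), the other tested host, had a coSE of 0.469 and 0.632; the 3 host introns had uninduced values of 0.364 to 0.469 and the 4 others after intron 1 values of 0.371 to 0.633, so the ranges overlapped.

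**Figure D2:**
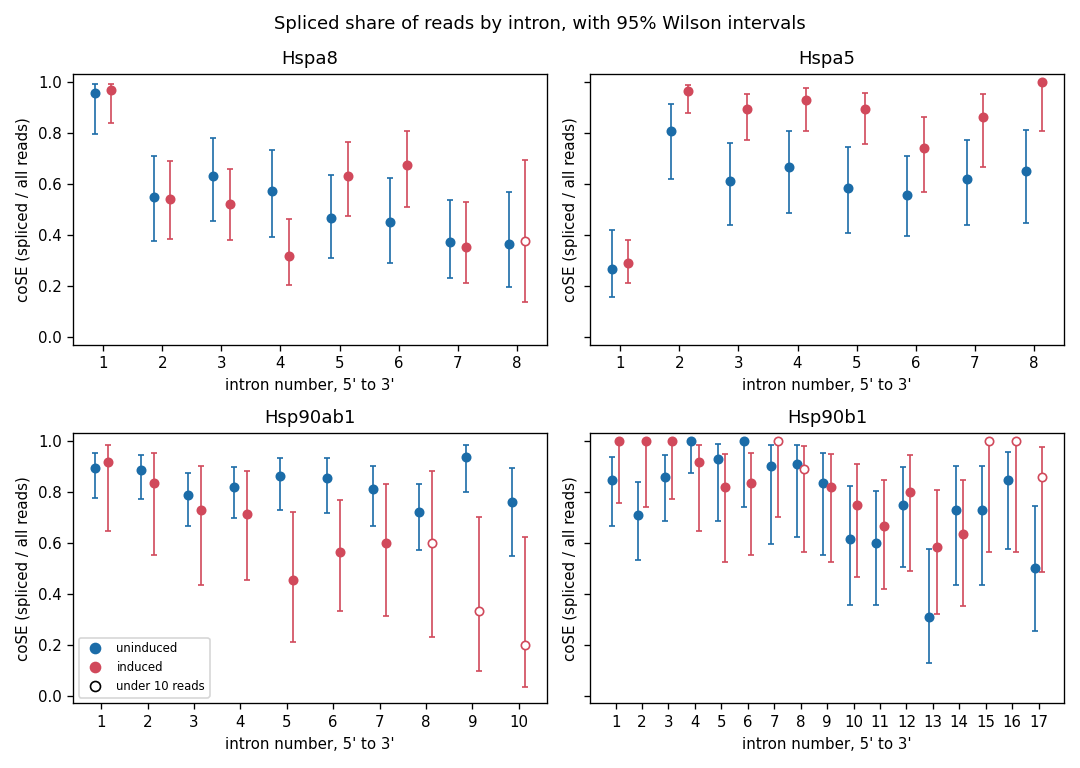
Each panel shows 1 gene, with the intron number from 5' to 3' on the horizontal axis and coSE on the vertical axis; points are the uninduced and the induced pool, bars are 95% Wilson intervals, and open points rest on under 10 reads. Intron 1 is the lowest of Hspa5 (0.268 and 0.288) and the highest of Hspa8 (0.958 and 0.968), and the induced points of Hspa5 introns 3 to 8 all lie above the uninduced ones.

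Hsp90ab1 encodes the constant Hsp90 protein of the cytosol. In the uninduced pool its 10 introns had 21 to 57 reads and a coSE between 0.721 at intron 8 and 0.938 at intron 9 (chr17:45568563-45568857), a narrow range. The induced pool had 5 to 16 reads per intron. Among the 7 introns with 10 reads in both pools, the induced coSE was lower at 6 and higher at intron 1 of the 5' UTR, where 42 of 47 and 11 of 12 reads were spliced. Intron 5, whose 5' and 3' scores of 5.56 and 4.55 are the lowest of the gene, was spliced in 37 of 43 uninduced reads (0.860, 0.727 to 0.934) and in 5 of 11 induced ones (0.455, 0.213 to 0.720). Its difference of -0.406 (-0.659 to -0.109) was the largest in size of the 34 introns with 10 reads in both pools and had an unadjusted p of 0.00920 and an adjusted p of 0.273 by Fisher's exact test. Of the 4 transcripts annotated across it, 1 has this intron. At intron 6 (chr17:45569827-45570257), 35 of 41 and 9 of 16 reads were spliced, a difference of -0.291 (-0.535 to -0.0427; adjusted p 0.513). Introns 8 to 10 had 5 or 6 induced reads, under the minimum, with 3 of 5, 2 of 6 and 1 of 5 spliced.

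Hsp90b1 encodes Grp94, the Hsp90 protein of the endoplasmic reticulum, with 17 introns and the lowest depth of the 4 tested genes in the uninduced pool, 10 to 31 reads. Its introns 1 to 3 were spliced in 22 of 26, 22 of 31 and 24 of 28 uninduced reads, and in all of 12, 11 and 13 induced reads. The widest of these differences was 0.290 (0.000962 to 0.466) at intron 2 (chr10:86703602-86704293), with an unadjusted p of 0.0828 and an adjusted p of 0.789 by Fisher's exact test. Intron 4 (chr10:86702029-86702908) was spliced in 27 of 27 uninduced and 11 of 12 induced reads, where 0 unspliced reads allow a share of up to 11.1%. Introns 10 to 14 had a coSE of 0.308 to 0.750 in the uninduced and of 0.583 to 0.800 in the induced pool. Introns 15 to 17 were spliced in 8 of 11, 11 of 13 and 6 of 12 uninduced reads and, under the minimum, in 5 of 5, 5 of 5 and 6 of 7 induced reads, so coSE followed no single order along the gene. The lowest value in both pools was at intron 13 (chr10:86693514-86693913), spliced in 4 of 13 and 7 of 12 reads, a difference of 0.276 (-0.101 to 0.563; adjusted p 1). No intron of Hsp90b1 had an unadjusted p under 0.05.

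The mitochondrial members had enough reads only in the uninduced pool. Hspd1 encodes the chaperonin Hsp60; introns 2, 3 and 4 of the tabulated transcript were spliced in 31 of 33, 29 of 35 and 29 of 32 uninduced reads, a coSE of 0.939, 0.829 and 0.906. In the induced pool they had 9, 6 and 6 reads, of which 8, 6 and 6 were spliced. Hspe1 encodes Hsp10, the lid of that chamber, and its 3 introns were spliced in 21 of 22, 18 of 20 and 16 of 16 uninduced reads. Among induced reads 5 of 5 were spliced at intron 1, but 1 of 6 at intron 2 (chr1:55089216-55090712; 0.0301 to 0.564) and 2 of 6 at intron 3 (chr1:55090803-55091069; 0.0968 to 0.7). These 6 reads are under the minimum; with no minimum, Fisher's exact test gave unadjusted p of 0.00176 and 0.00205 and adjusted p of 0.773 and 0.871. Hspa9, the mitochondrial Hsp70 mortalin, had 8 introns with 10 to 14 uninduced reads and a coSE from 0.636 at intron 16 to 1 at intron 12; its induced introns had 0 to 6 reads. Of its introns, 10 and 11 each hold an annotated small nucleolar RNA.

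Of the last 3 genes, Hsp90aa1, the stress-inducible cytosolic Hsp90, had 3 and 4 uninduced and 12 and 12 induced reads at its 2 listed introns, with 11 of 12 and 9 of 12 induced reads spliced at introns 2 and 3 (0.917, 0.646 to 0.985, and 0.750, 0.468 to 0.911). Hspa4 and Hsph1 are Hsp110 proteins, which recharge Hsp70 with ATP. Hspa4 had 3 to 8 uninduced and 0 to 3 induced reads at its 18 introns, and 94 of 104 uninduced observations were spliced. For Hsph1 2 introns were listed; intron 3 (chr5:149632175-149633829) was spliced in 0 of 7 uninduced reads, which by the floor of 3 counts allows a spliced share of up to 42.9%, and in 1 of 1 induced read.

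Set beside all introns with 10 reads, the chaperone introns had a lower coSE, with medians of 0.769 against 0.933 in the uninduced and 0.775 against 0.947 in the induced pool. Their length differed too, with medians of 295 against 1057 nt and of 229 against 937 nt. Among introns of up to 500 nt the medians were 0.718 over 38 chaperone introns and 0.833 over 3110 introns in the uninduced pool, and 0.742 over 27 and 0.846 over 2187 in the induced pool. Over 500 nt they were 0.900 against 0.960 and 0.917 against 1. A coSE of 1 was found at 4 of 57 chaperone introns (7.02%) and at 37.0% of all introns in the uninduced pool, while the chaperone introns were deeper, with a median of 26 reads against 16. After induction this was 4 of 36 (11.1%) against 43.1%, at medians of 13.5 and 15 reads. A coSE under 0.5 was found at 6 of 57 and 4 of 36 chaperone introns, 10.5% and 11.1%, beside 7.26% and 6.60% of all introns. All of these chaperone introns had up to 500 nt, and within that length the shares were 15.8% against 15.0% in the uninduced and 14.8% against 12.7% in the induced pool, close to the background. These are descriptions of a list, and introns of 1 gene share reads, so no test was made. The genes differed among themselves: the median coSE over introns was 0.509 and 0.541 for Hspa8, 0.617 and 0.894 for Hspa5, 0.836 and 0.714 for Hsp90ab1, and 0.833 and 0.818 for Hsp90b1, uninduced and induced, so that of these 4 genes Hspa5 was nearest to Hspa8 in the uninduced pool and had the highest median in the induced pool.

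Splicing intermediates, here taken as RNA that ends at the upstream exon after the first cut of splicing, were tabulated for 46 chaperone introns of uninduced and 22 of induced cells. The deposited value is NIC, intermediates over intermediates plus spliced reads. At least 1 intermediate was present at 23 of 46 (50.0%) and 11 of 22 introns (50.0%), beside 36.2% and 37.8% of all introns. Of 20 chaperone introns with a value in both pools none passed Fisher's exact test with Benjamini-Hochberg adjustment over 2039 introns, of which 0.0981% passed, and none had an unadjusted p under 0.05, beside 1.67% of all, 1.23% higher and 0.441% lower in the induced pool; by the chi-square test the count was also 0. The induced NIC was the higher one at 4 and the lower one at 12 of the 20, beside 26.9% and 27.4% of all introns, of which 932 of 2039 were tied. At 10 of the 12 introns no pool had more than 1 intermediate, and introns of a gene share molecules, so the count of signs says little. With background shares this small, finding 0 among 20 introns says little as well.

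The intermediates of the induced pool were in Hspa8, with 24 of 33, and in Hspa5, with the other 9. In Hspa8 introns 1 and 2 had 0 intermediates in both pools, and introns 3 to 7 had exactly 1 each in the uninduced pool. In the induced pool introns 3 to 7 had 1 of 24, 4 of 18, 6 of 29, 6 of 28 and 7 of 17 reads as intermediates. The NIC of intron 7 was 0.0769 (0.0137 to 0.333) and 0.412 (0.216 to 0.640), the highest chaperone value in the induced pool, with an unadjusted p of 0.0924 and an adjusted p of 1 in Fisher's exact test. Over introns 1 to 7, which have a value in both pools, 5 of 93 uninduced and 24 of 154 induced reads were intermediates, 5.38% and 15.6%. Over all introns of the table this share was 2.71% and 4.35%, also higher in the induced pool. The host introns 5 and 6 of Snord14c and Snord14d had induced NIC values of 0.207 (0.0985 to 0.384) and 0.214 (0.102 to 0.395), close to that of intron 4, 0.222 (0.0900 to 0.452), which holds no annotated one.

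In Hspa5 the order of the pools was the other way, with 9 of 121 uninduced and 9 of 238 induced reads over introns 1 to 7, 7.44% and 3.78%. Intron 2 had more of them than any other intron of the gene, 3 of 22 and 4 of 55 reads, a NIC of 0.136 (0.0475 to 0.333) and 0.0727 (0.0286 to 0.173). Intron 1, which was so often unspliced, had 0 intermediates beside 11 and 28 spliced reads, which allows a NIC of up to 27.3% and 10.7%. The highest uninduced NIC of the chaperone introns, 0.250 at Hsp90b1 intron 13, is 1 intermediate among 4 reads. In Hsp90ab1, 5 of 304 uninduced reads were intermediates (1.64%), 2 of them at intron 5; in the induced pool 0 of 11 were, which limits little. Hspd1 and Hspe1 had none among 72 and 19 uninduced reads.

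**Figure D3:**
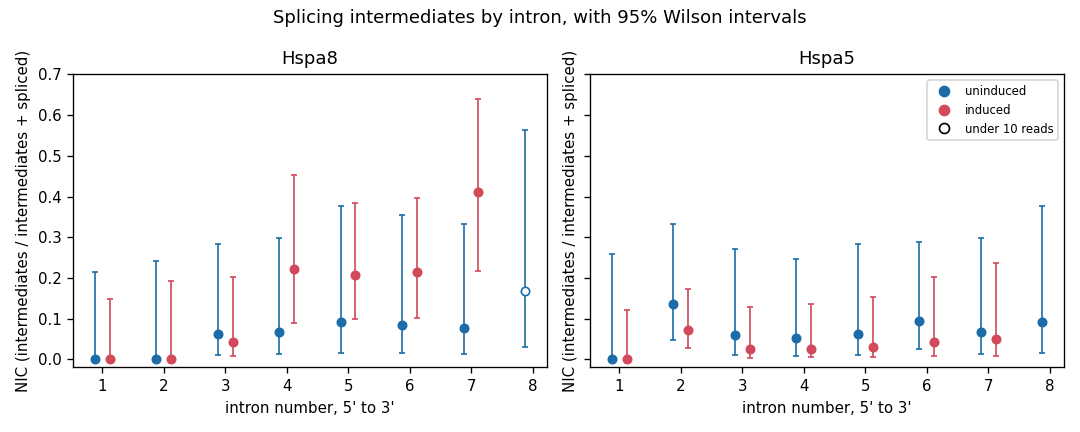
NIC, the share of splicing intermediates, by intron number from 5' to 3' for Hspa8 and Hspa5 in the uninduced and induced pool, with 95% Wilson intervals and open points under 10 reads. The induced points of Hspa8 introns 4 to 7 lie at 0.207 to 0.412, above the uninduced ones at 0.0667 to 0.0909, while their intervals overlap, and the induced points of Hspa5 lie at or below 0.0727.

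The number of reads over the most covered intron of a gene was compared between the pools after scaling to 100000 intron observations, with an exact 95% counting interval and no test. In bulk RNA fewer cells of a type and less RNA per cell cannot be told apart, and reads of the erythroid marker genes, which enter the total, went from 290 to 3310; their part in the ratios was not tested. Of the 8 chaperone genes with 10 reads at that intron in either pool, 3 were at least 2-fold higher in the induced pool, beside 18.2% of 2361 genes, and 3 at least 2-fold lower, beside 30.5%. Hsp90aa1 reached 10 reads only in the induced and Hspd1, Hspe1 and Hspa9 only in the uninduced pool, so their place among the 8 depended on the pool where they were high. With a minimum of 20 reads, 2 of 6 chaperone genes were higher, Hspa5 and Hspa8, beside 17.5% of 991 genes, and the same 3 were lower, beside 32.4%; these 3 reached 20 reads only in the uninduced pool, so this minimum has the same limit for them. Hspa5 intron 1 had 41 and 104 reads, or 9.85 and 37.2 per 100000, a ratio of 3.78 (2.61 to 5.57). Hspa8 intron 3 had 30 and 46 reads, a ratio of 2.29 (1.41 to 3.75), and Hsp90aa1 intron 3 had 4 and 12, a ratio of 4.47 (1.36 to 19.0). The higher genes thus include an endoplasmic and a cytosolic Hsp70. The lower ones were Hsp90ab1, with 55 and 14 reads at intron 4 and a ratio of 0.379 (0.195 to 0.692), Hspd1, with 33 and 9 reads at intron 2 and a ratio of 0.406 (0.171 to 0.868), and Hspe1, with 22 and 5 reads at intron 1 and a ratio of 0.339 (0.100 to 0.917). Hsp90b1 (31 and 11 reads, ratio 0.529, 0.240 to 1.08) and Hspa9 (14 and 5 reads, ratio 0.532, 0.150 to 1.56) had intervals that include 1. The 2 cytosolic constant forms, Hspa8 and Hsp90ab1, thus lay on opposite sides of 1, and so did Hspa5 and Hsp90b1 of the endoplasmic reticulum. With the median over a gene's introns in place of its most covered one, the ratio was 1.73 for Hspa8, 2.02 for Hspa5 and 1.26 for Hsp90b1, the last on the other side of 1, and 0.447 for Hspa9. By this measure 2 of the 8 genes were at least 2-fold higher, Hspa8 no longer among them, beside 17% of 1244 genes, and 4 at least 2-fold lower, with Hspa9 added, beside 36.8%.

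**Figure D4:**
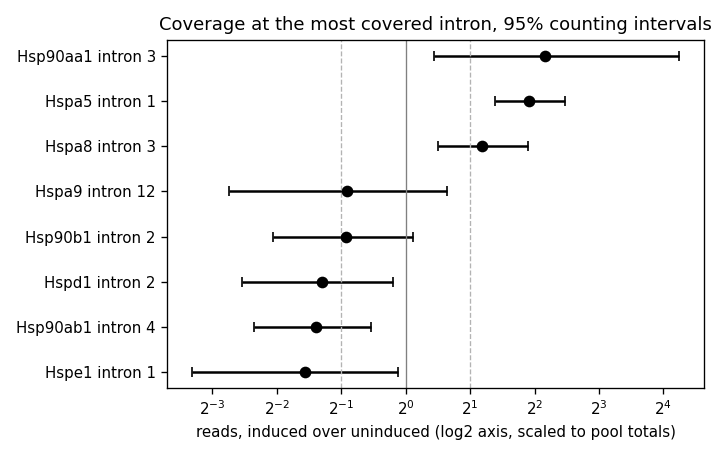
Ratio of reads in the induced over the uninduced pool at the most covered intron of each of 8 chaperone genes, scaled to pool totals, on a log2 axis with exact 95% counting intervals; dashed lines mark 2-fold. Hsp90aa1, Hspa5 and Hspa8 lie above 2-fold, Hspd1, Hsp90ab1 and Hspe1 below 1/2, and the intervals of Hspa9 and Hsp90b1 include 1.

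The ratio depended on the position along the gene. In Hspa5 the induced reads went from 104 at intron 1 over 56 at intron 2 to 16 at intron 8, while the uninduced reads went from 41 over 26 to 23. The coverage ratio was accordingly 3.78 at intron 1 and 1.04 (0.512 to 2.05) at intron 8. In Hspa8 it was 2.50 (1.53 to 4.15) at intron 4 and 0.542 (0.209 to 1.26) at intron 8, where 22 and 8 reads remained. Hsp90ab1 was lower in the induced pool at all 10 introns, with ratios from 0.173 to 0.582. In Hsp90b1 the uninduced reads went from 27 at intron 4 to 14 at intron 5, an intron of 3001 nt, and the induced reads from 12 to 11. These reads end where the polymerase stood or the RNA was cut, and how far each read reached is not tabulated.

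**Figure D5:**
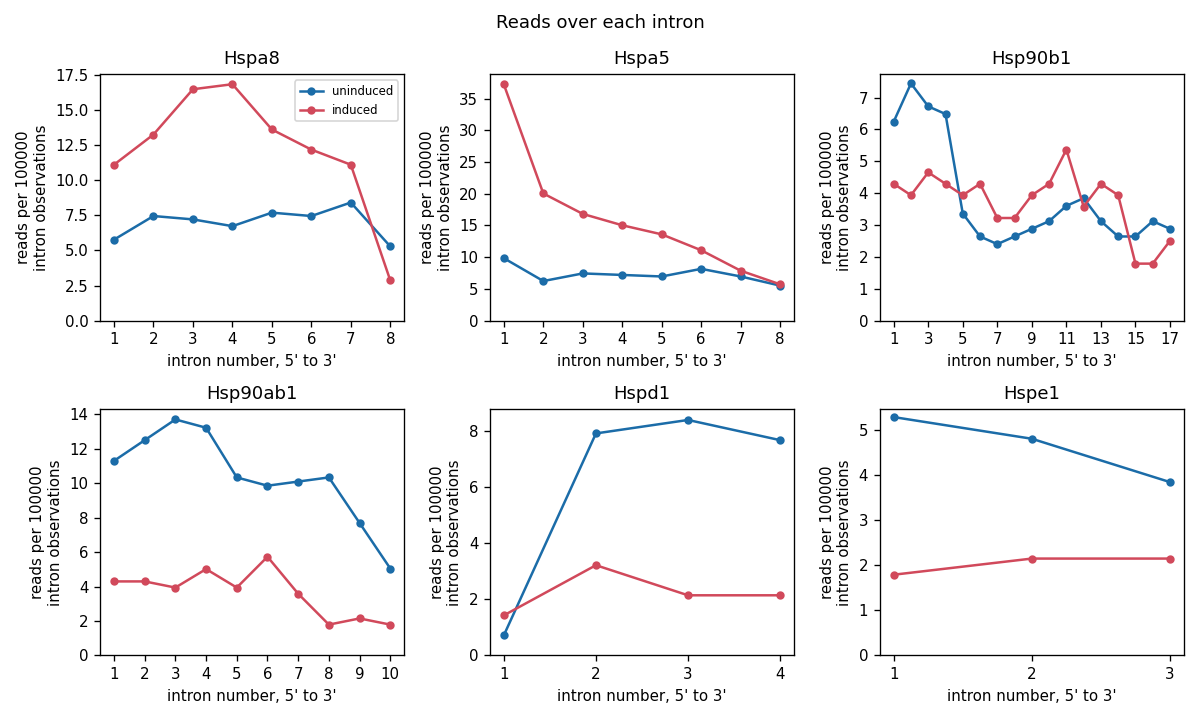
Reads over each intron per 100000 intron observations of the pool, by intron number from 5' to 3', for 6 genes in the uninduced and induced pool, without error bars. The induced line of Hspa5 starts at 37.2 and meets the uninduced one at intron 8 (5.73 and 5.52), and the lines of Hsp90ab1 do not cross.

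The further chaperones and cochaperones were looked up from a list of 99 genes, of which 75 were tabulated and 17 had introns with 10 reads in both pools. Of these 68 introns 1 passed the adjusted threshold, in 1 direction, beside 1.61% of all. It was intron 3 of Dnajc8 (chr4:132541839-132544055, between coding exons), a J-domain protein, spliced in 32 of 32 uninduced and 7 of 12 induced reads, a difference of -0.417 with an adjusted p of 0.0465 by Fisher's exact test. It did not pass by the chi-square test (adjusted p 0.0532), nor with no minimum, with the other spliced count or with the uninduced reads thinned (0.404, 0.108 and 0.210). The other large differences, at Canx intron 13, Ppid intron 3, Hspa14 intron 6 and Calr intron 2, ranged from -0.242 to 0.285 with adjusted p of 0.931 to 1. Calr, an endoplasmic chaperone, had a low coSE at intron 2 in both pools, 9 of 33 and 9 of 18 reads. In coverage, 3 of 26 of these genes were at least 2-fold higher and 7 at least 2-fold lower in the induced pool, beside 18.2% and 30.5% of all genes, so neither count exceeds the background. Of the 3 higher genes, Dnajb2 and Trap1 reached 10 reads only in the induced pool, and 5 of the 7 lower ones (Clpp, Sil1, Ttc9c, Dnajc8 and Lonp1) only in the uninduced pool. Dnajb2, a cochaperone of Hsp70, had 1 uninduced and 31 induced reads at its most covered intron, a ratio of 46.2 (7.70 to 1883), and Trap1, the mitochondrial Hsp90, 5 and 15 reads (ratio 4.47, 1.54 to 15.7). Stip1, which joins Hsp70 to Hsp90, had 14 and 21 reads (ratio 2.24, 1.08 to 4.75).

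Promoter sequences (RefSeq, GRCm38.p6, from 250 bases before to 50 after a transcript start) were found for 6 of the 10 genes: Hspa5, Hsp90b1, Hspd1, Hspe1, Hsph1 and Hspa4. A pair of motifs known from chaperone genes was searched on both strands: the heat shock element, as GAANNTTC or TTCNNGAA, and the endoplasmic reticulum stress element, as CCAAT and CCACG with 9 bases between. The former was in 15.1% and the latter in 0.119% of 32851 promoters of this length. A match is a run of letters and not a site in use. The heat shock element was in 4 of the 8 promoters found for these genes, both of Hsph1, that of Hspe1 and 1 of the 2 of Hspd1. Both Hsph1 promoters hold the same matches at the same positions, some of them after the transcript start. The count of 4 thus does not stand for 4 separate stretches. The tabulated transcripts of Hspe1 and Hspd1 point away from each other and overlap by 112 bases at their starts, and 1 stretch with 3 overlapping heat shock elements, in capitals, falls in the promoter of Hspe1 and in that of 1 of the 2 RefSeq starts of Hspd1, its far end 89 and 144 bases before them. The stretch lies inside the tabulated Hspd1 transcript, which starts upstream of it, and not before its start. It is shown on the strand of Hspe1 (chr1:55088059-55088076, plus).
Hspe1 and Hspd1 shared stretch: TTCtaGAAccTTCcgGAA

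The stress element had 1 match in the promoter of Hspa5 (chr2:34772025-34772043, plus strand) and 2 in that of Hsp90b1 (chr10:86705638-86705656, minus strand, and chr10:86705533-86705551, plus strand). Their letters are shown because so few promoters hold this motif and both of these genes serve the endoplasmic reticulum; the fixed ends are in capitals.
Hspa5, 65 bases before the start: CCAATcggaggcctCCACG
Hsp90b1, 212 bases before the start: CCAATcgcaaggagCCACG
Hsp90b1, 107 bases before the start: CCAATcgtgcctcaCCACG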

How the data were processed

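Spliced, unspliced and intermediate reads were deposited by the authors as raw counts with 1 line per intron and condition, and the splicing intermediates also as a deposited fraction (NIC), with a deposited GC percent and deposited splice site scores. Per the submitters' processing notes, cutadapt, minimap2, SAMtools, bedtools and Bowtie were used with the builds mm10 and dm3; the role of each, the counting rules and the scoring program are not given in the sources used here. The condition named on each line was matched to the titles of the 4 uninduced and 4 induced long-read samples. Which runs were added is not stated. The other 12 samples, of PRO-seq and of lines carrying an HBB transgene, were not analysed here.

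After the starts were moved by 2 bases and the ends by 1 into the intron, all 87 chaperone introns fell on introns of their transcript in GENCODE mouse release 21 (GRCm38), 9 of the 10 transcripts in the same version, and introns were numbered 5' to 3'. For the coSE test introns needed 10 reads in both pools, and for the NIC test a value in both pools, with no minimum of reads. For coverage a gene needed 10 reads at its most covered intron in at least 1 pool. Fisher's exact tests ran on the whole table (SciPy 1.17.1), with intervals of a difference after Newcombe, and were tested on simulated data. The total per pool, 416379 and 279371 observations, limits the precision; intervals and floors (3 counts) cover counting error only. Named introns were each gene's most covered, its lowest and highest, those with an unadjusted p under 0.05, those with the largest differences, NIC or site scores, and hosts of small nucleolar RNAs; others are given as examples. The members and lists were chosen with earlier results of these data known. No sequence of Hspa9 is printed.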

Additional observations from a re-analysis of the deposited data

How the results depend on the processing

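No paired analysis was possible because the deposited counts are sums over the libraries of a condition and no replicate number has values of its own; leaving out a replicate was not run for the same reason. No chaperone intron passed the adjusted coSE threshold under any alternative run: no minimum, a minimum of 20 reads (smallest adjusted p 0.0738), the spliced count of the second table, the chi-square test, thinned uninduced reads, and introns in all spanning transcripts. The count over all introns was 36 with no minimum and 31 in introns of all spanning transcripts. The median chaperone difference was 0 with no minimum, 0.160 at 20 reads, where 14 introns were left, and 0.105 over the 18 in all spanning transcripts. The sign turned at Hspa8 intron 2 (0.0233) and Hsp90b1 intron 9 (0.0182) with the other spliced count, and at Hspa8 intron 7 (0.00484) after thinning, all differences near 0; the cause was not tested. The spliced share of the 34 introns, 70.5% uninduced and 68.3% induced, rested on the genes: uninduced, it was 75.0% over all introns with a read, 74.5% without Hspa8, 63.6% without Hsp90ab1 and 74.6% without Hspa5; induced, it was 74.0% without Hspa8. The induced share was 68.7% over all introns with a read, 65.4% without Hspa5 and 68.2% without Hsp90ab1, so the uninduced pool had the higher share except without Hsp90ab1. By the chi-square test 1 intron of all passed for NIC, and no chaperone intron passed under any of the 3 alternatives run for it. Genes past 2-fold in coverage were 212 higher and 458 lower by the median over introns (1244 genes), and 173 and 321 at 20 reads (991 genes), where fewer genes were tested. Scaling by the median ratio, which divided all ratios by 0.827, the median over genes with reads in both pools, gave 553 higher and 574 lower genes in place of 430 and 721, and left 3 chaperone genes higher and 3 lower.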
